A study of Mus musculus with 25 samples.

Results

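Glucose uptake, glycolysis and the response to low oxygen were followed through 36 genes, chosen by name, among the 24015 gene symbols listed for each of 2 sets of RNA sequencing libraries. They fall into 5 groups by role: transporters of glucose and lactate (Slc2a1, Slc2a3, Slc16a3), glycolytic enzymes (Hk1, Hk2, Gpi1, Pfkl, Pfkm, Pfkp, Aldoa, Aldoc, Tpi1, Gapdh, Pgk1, Pgam1, Eno1, Eno2, Ldha), regulators of the flux (Pfkfb3, Pfkfb4, Pdk1), subunits of the hypoxia-inducible factor with its prolyl hydroxylases (Hif1a, Epas1, Egln1, Egln3), and other genes known to be induced by low oxygen (Bnip3, Bnip3l, Ndrg1, Car9, Car12, Ankrd37, Adm, P4ha1, P4ha2, Kdm3a, Higd1a). The study asked how basal cell carcinomas, skin tumours driven by the Hedgehog pathway, become resistant to inhibitors of Smo, the receptor that switches the pathway on. RNA was sequenced from 4 resistant and 4 sensitive mouse tumours. It was also sequenced from cultured ASZ001, a murine line of basal cell carcinoma labelled as resistant, after treatment with CCG-1423, with vismodegib or with vehicle, in 3 libraries each. The 8 exome samples of the series were not analysed here. Resistant and sensitive tumours alike came from C57BL6 mice that were Ptch+/- and p53 fl/fl and carried K14 Cre-ER, and all the mice received a Smo inhibitor by oral gavage. The Cre of these mice is driven by keratin 14, which is active in basal keratinocytes, and is induced by a ligand of the oestrogen receptor. CCG-1423 blocks the SRF coactivators of the MRTF family, and vismodegib blocks Smo. The sources used here do not give doses, treatment times, the animals' ages or whether replicates are separate animals or cultures, so the p-values cover the scatter of these libraries alone, and that scatter may be technical.

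Glycolysis splits glucose to pyruvate in the cytosol, and Ldha turns pyruvate into lactate, which leaves the cell through carriers such as Slc16a3. The hypoxia-inducible factor, a dimer of an alpha subunit (Hif1a or Epas1) and Arnt, raises the transcription of most of these genes when oxygen is low. With oxygen present, the prolyl hydroxylases encoded by Egln genes mark the alpha subunits for breakdown by the Vhl complex, so that much of the control acts on the protein, which was not measured here. Solid tumours often express these genes at high levels, in poorly perfused regions or through growth signalling.

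Values are the deposited normalized read counts, that is, reads per gene divided by a factor for the depth of the library. Reads at genes numbered 17537094 to 20014426 in resistant tumours, 8111252 to 11125956 in sensitive tumours 1 to 3, with 14161398 in sensitive tumour 4. In the cells they numbered 32024887 to 41040633 with CCG-1423, 30455530 to 35561668 with vismodegib and 32192090 to 44017757 with vehicle. Sensitive tumour 4 lay with the resistant tumours on the first principal component of all genes, and, like them, it had 0 reads from Y-linked genes, of which sensitive tumours 1 to 3 had 1391 to 2174. The tumour comparison is therefore given with and without it. Without it, the labelled group and the presence of Y-linked reads, and hence the animals' sex, cannot be told apart. Basal keratinocyte markers were present in every tumour and every cell library, which does not by itself establish the labelled tumour type.

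The promoters of 32 members were found in RefSeq's table (build GRCm38.p6), as 46 windows of 300 bases from 250 before to 50 after a transcription start. The core letters to which the hypoxia-inducible factor binds, ACGTG or GCGTG on either strand, occurred in 36 of these windows (78.3%), against 14380 of all 32851 windows in the table (43.8%). Windows of members held more CG dinucleotides, with a median of 20 against 7. Among windows with at least 10 CG, the letters stood in 30 of 34 for members (88.2%) and in 68.4% of all such windows. A match of letters is a description and not a binding site. Of the windows, 6 are shown because their genes carry the contrasts below. The sequences run 5′ to 3′ on the gene's strand, with the matched letters in capitals, so that CACGT and CACGC are matches on the other strand and CACGTG counts on both. Pgk1 (chrX:106186850-106187149, plus strand), Ldha (chr7:46845554-46845853, plus strand, the first of its 2 windows), Bnip3 (chr7:138909457-138909756, minus strand), P4ha2 (chr11:54100674-54100973, plus strand), Hk2 (chr6:82774405-82774704, minus strand) and Car12 (chr9:66713436-66713735, plus strand) were chosen after their values were seen.
Pgk1: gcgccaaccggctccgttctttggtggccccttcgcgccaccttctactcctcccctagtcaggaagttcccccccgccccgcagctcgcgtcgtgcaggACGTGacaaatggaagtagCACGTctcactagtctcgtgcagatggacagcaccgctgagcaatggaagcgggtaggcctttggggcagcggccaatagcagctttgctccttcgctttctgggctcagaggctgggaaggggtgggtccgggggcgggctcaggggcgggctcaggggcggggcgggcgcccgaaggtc
Ldha: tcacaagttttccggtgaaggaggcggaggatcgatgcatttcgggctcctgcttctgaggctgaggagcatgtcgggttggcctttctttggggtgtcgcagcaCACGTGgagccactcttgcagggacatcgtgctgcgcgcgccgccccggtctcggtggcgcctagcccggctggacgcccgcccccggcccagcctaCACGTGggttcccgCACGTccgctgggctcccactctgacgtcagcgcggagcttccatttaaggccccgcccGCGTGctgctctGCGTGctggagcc
Bnip3: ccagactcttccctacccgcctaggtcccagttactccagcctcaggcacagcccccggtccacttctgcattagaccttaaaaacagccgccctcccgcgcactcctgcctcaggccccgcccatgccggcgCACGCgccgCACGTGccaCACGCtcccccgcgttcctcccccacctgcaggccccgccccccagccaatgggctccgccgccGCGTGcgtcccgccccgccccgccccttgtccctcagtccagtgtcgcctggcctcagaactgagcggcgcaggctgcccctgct
P4ha2: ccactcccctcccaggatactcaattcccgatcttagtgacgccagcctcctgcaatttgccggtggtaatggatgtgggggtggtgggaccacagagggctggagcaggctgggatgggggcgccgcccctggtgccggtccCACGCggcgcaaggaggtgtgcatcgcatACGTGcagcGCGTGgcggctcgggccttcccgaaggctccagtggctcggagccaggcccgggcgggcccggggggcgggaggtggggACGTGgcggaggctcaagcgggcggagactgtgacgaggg
Hk2: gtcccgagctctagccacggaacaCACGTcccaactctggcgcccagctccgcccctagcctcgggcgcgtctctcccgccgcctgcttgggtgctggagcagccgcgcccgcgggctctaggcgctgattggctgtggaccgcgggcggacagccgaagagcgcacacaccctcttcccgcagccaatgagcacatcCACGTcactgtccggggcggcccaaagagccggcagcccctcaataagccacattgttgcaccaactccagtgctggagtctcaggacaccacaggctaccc
Car12: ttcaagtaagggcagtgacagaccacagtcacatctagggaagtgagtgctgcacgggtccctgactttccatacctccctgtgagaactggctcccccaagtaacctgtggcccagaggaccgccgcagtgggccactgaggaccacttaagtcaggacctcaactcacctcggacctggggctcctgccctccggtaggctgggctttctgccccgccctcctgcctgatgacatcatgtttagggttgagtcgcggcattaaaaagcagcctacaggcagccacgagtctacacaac
The Ldha window held 7 matches at 5 separate places, the Bnip3 window 5 at 4 places, the P4ha2 window 4, the Pgk1 and Hk2 windows 2 each and the Car12 window 0. The windows of Tpi1, Gpi1 and Eno2, genes that rose in resistant tumours without sensitive tumour 4, held 0 as well. Those of Pfkm, which fell, held 3, 2, 1 and 0 matches.

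The tumour comparison addresses which genes mark resistance. In resistant tumours most members lay well above sensitive tumours 1 to 3, while sensitive tumour 4 carried the same high levels as the resistant ones. With all 8 tumours, 33 of 35 tested members had a positive log2 fold change, as had 52% of all genes, with a median of 1.60 against 0.03 over all genes tested, but 0 members passed limma at an adjusted p of 0.05, where 0.113% of all genes passed. The members' adjusted p ran from 0.127 (Epas1) to 0.932 (Pfkfb4), and 29 had an unadjusted p under 0.05, as did 25.1% of all genes. Neither did edgeR call a member, and DESeq2 called Epas1 and Car9 higher and Pfkm and Car12 lower, where it called 10.8% of all genes. Without sensitive tumour 4, 29 members were higher and 2 lower of the 35 tested, where 20.6% of all genes passed as higher and 19.4% as lower. The members' median log2 fold change was then 2.26, against 0.02 over all genes. Values of the groups did not overlap for 30 members that were higher and 2 that were lower in resistant tumours, against 24.3% and 23.3% of all genes. With sensitive tumour 4 included, the groups were apart for Epas1 alone, against 7.9% of all genes in either direction. Sensitive tumour 4 was left out for its expression, in the same data that were then tested. The p-values without it therefore tend to be too small, here and below. They describe the remaining 7 libraries and are not evidence of a difference by resistance. In bulk RNA, fewer cells of a type and less RNA per cell cannot be told apart.

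**Figure D1:**
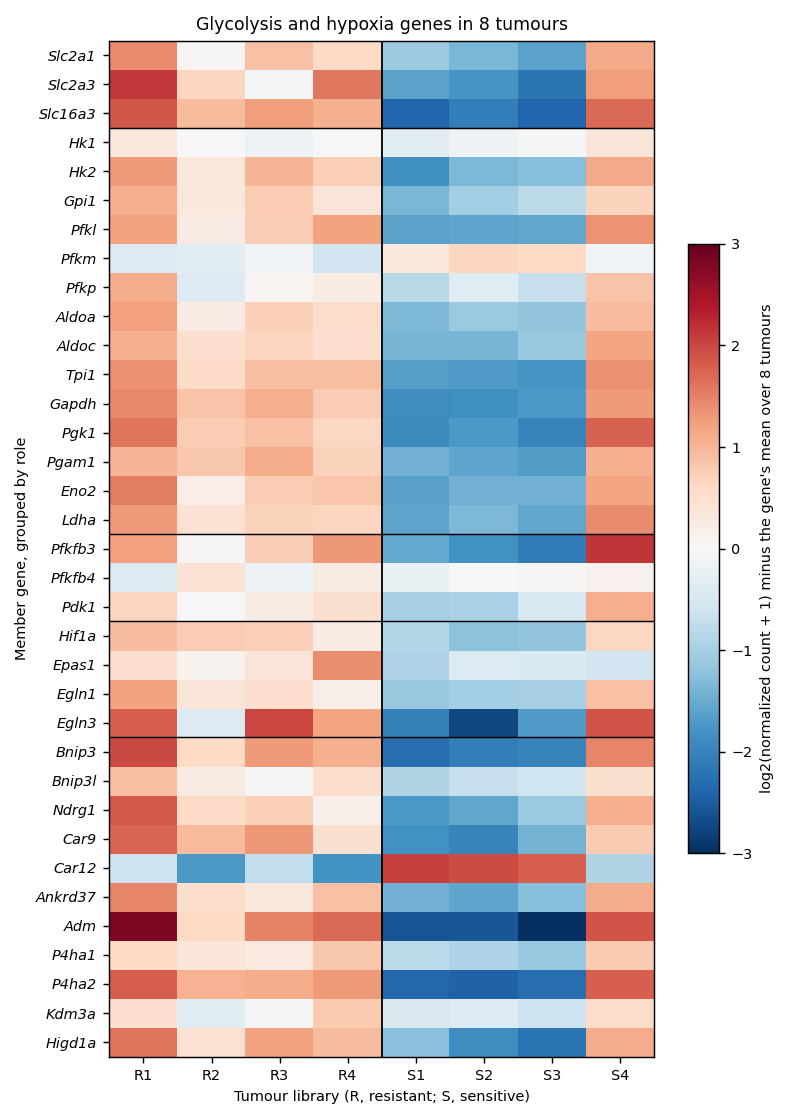
Level of each of the 35 tested members in the 8 tumours, as log2(normalized count + 1) minus the gene's mean over the tumours, with resistant tumours R1 to R4 left of sensitive tumours S1 to S4 and horizontal lines between the role groups. Most rows are red in the resistant tumours and in S4 and blue in S1 to S3, while Pfkm and Car12 run the other way.

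All 3 transporters rose in resistant tumours once sensitive tumour 4 was left out. Slc16a3, which exports lactate, had 1774, 944, 1161 and 1015 normalized counts in resistant tumours 1 to 4, against 93.2, 116 and 92.7 in sensitive tumours 1 to 3, with 1583 in sensitive tumour 4. Every resistant tumour was thus far above sensitive tumours 1 to 3, and sensitive tumour 4 lay inside the resistant range. Its mean in resistant tumours was 12.2 times that of sensitive tumours 1 to 3, and the log2 fold change was 3.55 ± 0.23 without sensitive tumour 4 (SE, limma adjusted p = 5.19e-05) and 2.56 ± 0.84 with it (adjusted p = 0.147). Slc2a1, the widespread glucose transporter, had 8243, 3127, 5642 and 4656 normalized counts in resistant tumours, against 1448, 1183 and 1000.2 in sensitive tumours 1 to 3, with 6750.4 in sensitive tumour 4. Slc2a3, a glucose transporter of high affinity, had 2459.6, 882, 549 and 1688 in resistant tumours, against 183, 165 and 123 in sensitive tumours 1 to 3, with 1338 in sensitive tumour 4. Of the 3 transporters Slc2a3 varied most among the resistant tumours, with resistant tumour 3 lowest. The log2 fold changes without sensitive tumour 4 were 2.09 ± 0.30 for Slc2a1 (adjusted p = 0.00123) and 2.94 ± 0.46 for Slc2a3 (adjusted p = 0.00185).

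Of 14 glycolytic enzymes tested, 11 rose and 1 fell in resistant tumours without sensitive tumour 4, with a median log2 fold change of 2.29. The genes that rose span the pathway, from Hk2, which phosphorylates glucose (log2 fold change 2.32 ± 0.24), through Gpi1, the isomerase of the next step (1.72 ± 0.22), and Pfkl, the liver type of phosphofructokinase (2.42 ± 0.24), to Aldoa (1.89 ± 0.22) and Aldoc (1.98 ± 0.19), the aldolases, and on to Ldha (2.26 ± 0.21). The 4 enzymes of smallest p were Pgam1, Gapdh, Tpi1 and Pgk1. Pgam1, a phosphoglycerate mutase, had 15349, 13317, 16425 and 12361 normalized counts in resistant tumours, against 2796, 2530.5 and 2383 in sensitive tumours 1 to 3, with 16051 in sensitive tumour 4 (log2 fold change 2.48 ± 0.15, adjusted p = 3.84e-05). Gapdh, which oxidises the triose phosphate, had 57462, 38051, 44596 and 36153 in resistant tumours, against 5832, 5941 and 6374 in sensitive tumours 1 to 3, with 51662 in sensitive tumour 4 (2.84 ± 0.19, adjusted p = 5.58e-05). Tpi1, the triose isomerase, had 6372, 3656, 4552 and 4549 in resistant tumours, against 780.4, 750.2 and 714 in sensitive tumours 1 to 3, with 6326 in sensitive tumour 4 (2.65 ± 0.19, adjusted p = 6.78e-05). In each of these the sensitive tumours 1 to 3 lay close together, far below every resistant tumour. Pgk1, which yields the first ATP of the pathway and whose promoter is shown above, had 16651, 9242, 10153 and 8448 in resistant tumours, against 1454, 1660.2 and 1373 in sensitive tumours 1 to 3, with 18679 in sensitive tumour 4 (2.85 ± 0.23, adjusted p = 0.000134). Here sensitive tumour 4 was above every resistant tumour. Ldha had 17129 to 31039 normalized counts in resistant tumours, against 4251 to 5041 in sensitive tumours 1 to 3, with 34056 in sensitive tumour 4.

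Pfkm, the muscle type of phosphofructokinase, fell while Pfkl rose. It had 259, 269.6, 322 and 229 normalized counts in resistant tumours, against 430.5, 537 and 518 in sensitive tumours 1 to 3, with 316 in sensitive tumour 4, and its log2 fold change was -0.88 ± 0.17 (adjusted p = 0.00488). Resistant tumours lay below sensitive tumours 1 to 3 without overlap, and sensitive tumour 4 lay among the resistant ones. Pfkp, the platelet type, had a log2 fold change of 0.87 ± 0.32 that did not pass (adjusted p = 0.0563), with 4672, 1652, 2264 and 2524 normalized counts in resistant tumours against 1227, 1698 and 1348 in sensitive tumours 1 to 3. Of the hexokinases Hk2 passed and Hk1 did not. Hk1, the form of most tissues, had 718, 568, 506 and 567 in resistant tumours against 456, 513 and 546 in sensitive tumours 1 to 3 (0.21 ± 0.16, adjusted p = 0.318). Eno2, the neuronal type of enolase, rose by 2.35 ± 0.28 (log2 scale, adjusted p = 0.00055). Eno1, the common enolase, was untested with at most 5.07 normalized counts in any tumour, while the row Eno1b held 1399 to 1979 in resistant tumours, 21.5 to 55.1 in sensitive tumours 1 to 3, with 2284 in sensitive tumour 4. Eno1b is a near-identical copy of Eno1, and the sources used here do not say how reads were shared between both rows, so neither row is read as the level of the enolase gene. No test compared the isoforms of a step with each other.

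**Figure D2:**
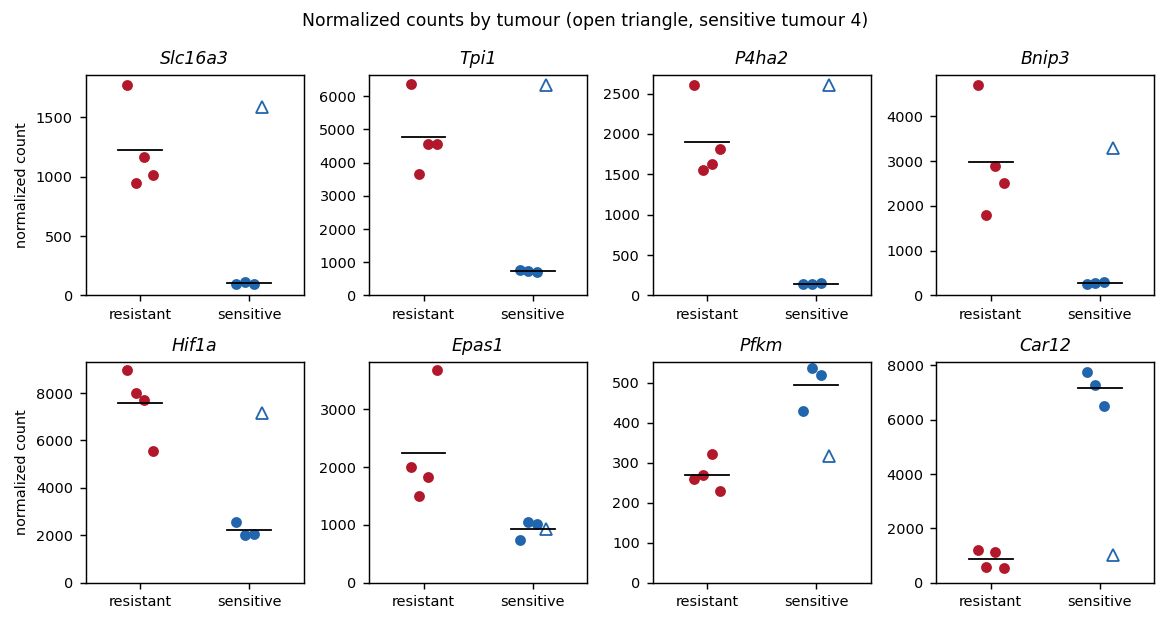
Normalized counts of 8 members in each tumour, with resistant tumours left and sensitive tumours right, the open triangle marking sensitive tumour 4 and the lines the means of resistant tumours 1 to 4 and of sensitive tumours 1 to 3. Sensitive tumour 4 sits with the resistant tumours in every panel except Epas1, where it lies among sensitive tumours 1 to 3.

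Among the regulators of the flux, Pfkfb3 and Pdk1 rose without sensitive tumour 4 and Pfkfb4 did not pass. Pfkfb3, which makes a fructose bisphosphate that speeds up phosphofructokinase, had 2662, 1159, 1894 and 2800.5 normalized counts in resistant tumours, against 390.2, 319 and 257 in sensitive tumours 1 to 3, with 5002 in sensitive tumour 4 (log2 fold change 2.66 ± 0.31, adjusted p = 0.000517). Pdk1, the kinase that holds back the entry of pyruvate into mitochondria, had 1536, 975, 1147 and 1365 in resistant tumours, against 490.3, 502 and 707 in sensitive tumours 1 to 3, with 2090.0 in sensitive tumour 4 (1.15 ± 0.20, adjusted p = 0.00311). In both genes sensitive tumour 4 exceeded every resistant tumour. Pfkfb4, an enzyme of the same family as Pfkfb3, had 58.6, 107, 70.6 and 91.4 in resistant tumours and 66.8, 77.7, 81.1 and 86.2 in sensitive tumours 1 to 4. Its groups overlapped (0.09 ± 0.26 without sensitive tumour 4, adjusted p = 0.816).

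Both alpha subunits and both prolyl hydroxylases rose at the RNA level without sensitive tumour 4. Hif1a, the alpha subunit of most cells, had 8967, 8015, 7726 and 5561 normalized counts in resistant tumours, against 2544, 2009 and 2073 in sensitive tumours 1 to 3, with 7169 in sensitive tumour 4 (log2 fold change 1.76 ± 0.19, adjusted p = 0.000357). Egln3, an oxygen sensor that is itself induced by low oxygen, had 2662, 570.3, 3041 and 1727 in resistant tumours, against 185, 114 and 235 in sensitive tumours 1 to 3, with 2845 in sensitive tumour 4 (3.29 ± 0.54, adjusted p = 0.00223). Egln1, the main oxygen sensor, had 5369, 2985, 3249 and 2616 in resistant tumours, against 1047, 1142 and 1153 in sensitive tumours 1 to 3, with 4269 in sensitive tumour 4 (1.62 ± 0.23, adjusted p = 0.00124). Of these 4 genes Egln3 varied most, its value in resistant tumour 2 being far under that of the other resistant tumours. Epas1, the alpha subunit known from endothelium, differed from these in sensitive tumour 4. It had 1997, 1498, 1822 and 3674 in resistant tumours and 733, 1043, 1012 and 937 in sensitive tumours 1 to 4. It was the 1 member whose groups did not overlap among all 8 tumours, with a log2 fold change of 1.20 ± 0.27 (adjusted p = 0.127) and 1.20 ± 0.29 without sensitive tumour 4 (adjusted p = 0.0122). Summed markers of endothelium were 2672 to 5046 normalized counts in resistant tumours, 2033 to 2206 in sensitive tumours 1 to 3, with 3126 in sensitive tumour 4, with 3 of 7 markers higher without sensitive tumour 4, and their part in the Epas1 result was not tested. The same markers summed to 2552 to 2657 in cultured ASZ001 cells with vehicle, normalized separately, so the sum is not specific to endothelium. In those cells Flt1 (mean 1670) and Pecam1 (mean 882) made up most of the sum. The means of Kdr, Cdh5, Emcn, Tek and Vwf were 0, 0.54, 0.27, 15.7 and 35.2, so this limit concerns mainly Flt1 and Pecam1.

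Of the 11 other hypoxia-induced genes, 9 rose and 1 fell without sensitive tumour 4, with a median log2 fold change of 2.29. P4ha2, a prolyl hydroxylase of collagen, had the smallest p of all members, with 2612, 1549, 1626 and 1813 normalized counts in resistant tumours, against 145, 138 and 152 in sensitive tumours 1 to 3, with 2602 in sensitive tumour 4. The mean in resistant tumours was 13.1 times that of sensitive tumours 1 to 3, a log2 fold change of 3.67 ± 0.20 (adjusted p = 2.54e-05). Adm, the vasodilating peptide adrenomedullin, had the highest fold change, with 1438, 310.3, 581 and 664 in resistant tumours, against 33.4, 33.9 and 19.9 in sensitive tumours 1 to 3, with 759 in sensitive tumour 4 (4.46 ± 0.47, adjusted p = 0.000339). Bnip3, a mitochondrial protein of mitophagy, had 4711, 1799, 2888 and 2511 in resistant tumours, against 246, 284 and 296 in sensitive tumours 1 to 3, with 3284 in sensitive tumour 4 (3.35 ± 0.29, adjusted p = 0.000167). For all 3 genes the resistant tumours and sensitive tumour 4 shared a range that sensitive tumours 1 to 3 did not reach. Car9, a carbonic anhydrase of the cell surface that is a classical marker of low oxygen, averaged 553 ± 204 in resistant tumours and 72.2 ± 15.5 in sensitive tumours 1 to 3 (SD, n = 4 and n = 3), with 419.6 in sensitive tumour 4. Its relative Car12 moved the other way, with 1215, 570.3, 1121 and 542 normalized counts in resistant tumours, against 7766, 7271 and 6488 in sensitive tumours 1 to 3, with 1012 in sensitive tumour 4. The log2 fold changes were 2.86 ± 0.30 for Car9 (adjusted p = 0.000368) and -3.15 ± 0.30 for Car12 (adjusted p = 0.000255). Higd1a, a mitochondrial protein (2.82 ± 0.30), Ndrg1, a stress-response gene (2.29 ± 0.36), Ankrd37 (2.23 ± 0.30), P4ha1, the partner of P4ha2 in its family (1.47 ± 0.17), and Bnip3l, a mitophagy receptor (1.16 ± 0.20), rose too. Kdm3a, a histone demethylase, had a log2 fold change of 0.70 ± 0.26 and did not pass (adjusted p = 0.0608).

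Sensitive tumour 4 lay within the range of the resistant tumours for 27 of the 35 members (77.1%), above it for 7 and below it for 1, against 62.8% within it over all genes. It exceeded sensitive tumours 1 to 3 in 32 members (91.4%, all genes 41.6%). On the log2 scale it was nearer the resistant mean than that of sensitive tumours 1 to 3 in 34 (97.1%, all genes 77.8%). Among the resistant tumours the members shared an order: resistant tumour 1 was highest in 27 of 35 (77.1%, all genes 27.2%), with a median log2 deviation from the group mean of 0.49. Resistant tumour 2 was lowest in 19 (54.3%, all genes 25.6%), with a median deviation of -0.34. These counts are descriptions, given without a test.

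Several markers of other cells and a nuclear RNA differed along the same split of the tumours. Basal keratinocyte markers summed to 32442 to 92179 normalized counts in resistant tumours, 155259 to 226665 in sensitive tumours 1 to 3, with 83576 in sensitive tumour 4, with 5 of 7 lower in resistant tumours without the last. Differentiated keratinocyte markers summed to 223 to 689.9 in resistant tumours, 4552 to 6708 in sensitive tumours 1 to 3, with 817 in sensitive tumour 4. Of 6 tested, 4 were lower and 1 higher without sensitive tumour 4. With all 8 tumours Cdsn and Klk7, genes of the outermost epidermis, passed as lower (log2 fold change -4.49 ± 0.59 and -6.04 ± 0.85, limma adjusted p = 0.0488 for both), and no other gene of the 14 marker lists did. Melanocyte markers summed to 255 to 298 in resistant tumours, 353 to 376 in sensitive tumours 1 to 3, with 221 in sensitive tumour 4, and 2 of 4 tested were lower. Adipocyte markers summed to 70.4 to 465 in resistant tumours, 29.7 to 38.1 in sensitive tumours 1 to 3, with 199 in sensitive tumour 4, and Fabp4, the 1 gene tested, was higher. Neutrophil markers summed to 7826 to 12327 in resistant tumours, 774 to 1202 in sensitive tumours 1 to 3, with 21065 in sensitive tumour 4, with 5 of 5 tested higher. Proliferation markers summed to 8232 to 21285 in resistant tumours, 1873 to 3429 in sensitive tumours 1 to 3, with 20667 in sensitive tumour 4, with 5 of 5 higher. Sums of fibroblast markers overlapped between the groups, with 78907 to 119383 in resistant tumours, 66684 to 137664 in sensitive tumours 1 to 3, with 96520 in sensitive tumour 4. Without the last, 2 of 7 were lower and 0 higher. Markers of pericytes and smooth muscle summed to 13087 to 19216 in resistant tumours, 7426 to 9541 in sensitive tumours 1 to 3, with 19377 in sensitive tumour 4, with 3 of 6 higher and 1 lower without the last. Skeletal muscle, itself rich in glycolytic enzymes, gave summed markers of 65.6 to 993 in resistant tumours, 24.8 to 49.5 in sensitive tumours 1 to 3, with 127 in sensitive tumour 4. Of 2 tested, 1 was higher and 0 lower without sensitive tumour 4. The 4 globin genes were at 0 in every resistant tumour and in sensitive tumours 1 to 3. How their reads were counted is not stated in the sources used here, so these zeros are not read as an absence of blood. The nuclear RNA Malat1 took 1.30 to 1.69% of reads in resistant tumours, 2.89 to 3.20% in sensitive tumours 1 to 3, with 1.31% in sensitive tumour 4. Their part in the members' differences was not tested.

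Neighbouring pathways, taken from 10 further lists, had lower medians than the members, and with all 8 tumours 0 of their genes passed by limma. Without sensitive tumour 4, the rest of glycolysis and lactate handling had 6 genes higher and 4 lower of 19, with a median of 0.30. Pkm, the pyruvate kinase of proliferating tissue (2.47 ± 0.17), Slc16a1, a carrier of lactate (3.79 ± 0.32), and Bsg, the chaperone of the lactate carriers (1.07 ± 0.16), rose, and Pfkfb2, the heart type of the Pfkfb enzymes, fell (-1.56 ± 0.16). Further hypoxia-induced genes had 15 higher and 4 lower of 26, with a median of 1.24. Among those of smallest p were Vegfa, the growth factor of vessels (3.52 ± 0.21), Plod2, a lysyl hydroxylase of collagen (3.24 ± 0.22), and Fam162a (3.46 ± 0.25). Glycogen metabolism had 9 higher and 0 lower of 12, among them Ppp1r3b, a scaffold of the glycogen phosphatase (2.45 ± 0.23), Pygb, a phosphorylase (2.24 ± 0.27), Gys1, the synthase (1.90 ± 0.25), and Gyg, the primer (0.91 ± 0.16). The pentose phosphate pathway had 4 higher and 1 lower of 7, among them Tkt (1.09 ± 0.14), Rpia (1.26 ± 0.23), Taldo1 (0.79 ± 0.16) and Pgls (1.15 ± 0.26). The citric acid cycle had 6 higher and 1 lower of 17, led by Cs, the citrate synthase (1.48 ± 0.16), Idh3a (1.27 ± 0.17), Dlst (0.81 ± 0.14) and Sdhd (1.20 ± 0.21). Entry of pyruvate into mitochondria had 2 higher, Pdk3 (0.83 ± 0.20) and Dld (0.58 ± 0.16), and 1 lower, Pdk2, a pyruvate dehydrogenase kinase like Pdk1 (-1.59 ± 0.20), of 12. The oxygen-sensing machinery had 4 higher and 2 lower of 13, with Arnt2, a partner of the alpha subunits (3.20 ± 0.53), and Siah2 (1.05 ± 0.27) higher and Egln2 (-0.51 ± 0.13) and Hif1an (-0.58 ± 0.16), both oxygen-dependent hydroxylases, lower. Of 10 other genes of carbonic anhydrases and acid export, Car4 (4.07 ± 0.65), Car13 (2.04 ± 0.33) and Car2 (2.34 ± 0.66) rose. Among 7 regulators of glycolysis, Myc (1.23 ± 0.18) and Ppargc1a (2.31 ± 0.42) rose, and Txnip, which restrains glucose uptake (-2.66 ± 0.32), and Mlxip (-0.64 ± 0.12) fell. Gluconeogenesis had 1 higher, Pck2 (0.82 ± 0.22), of 3 tested.

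CCG-1423 was compared with vehicle in ASZ001 cells to ask what changes when MRTF is blocked. It lowered most of the glycolytic and hypoxia genes and raised a smaller set: of 32 tested members 23 fell and 9 rose, in a comparison in which 42.6% of all genes passed as lower and 42.8% as higher. Every tested member thus passed, where 85.3% of all genes did. The members' median log2 fold change was -0.63, against 0.00 over all genes. The genes that rose were Pfkfb3, Ndrg1, Slc2a3, Hk2, Eno2, Car12, P4ha2, Hk1 and Kdm3a. Slc16a3, Eno1, Car9 and Adm were too low to test in these cells. Adm had 0 reads in all 3 CCG-1423 libraries, which allows up to 3 reads or 2.60 to 3.35 normalized counts, and 2.26 to 5.72 in vehicle.

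**Figure D3:**
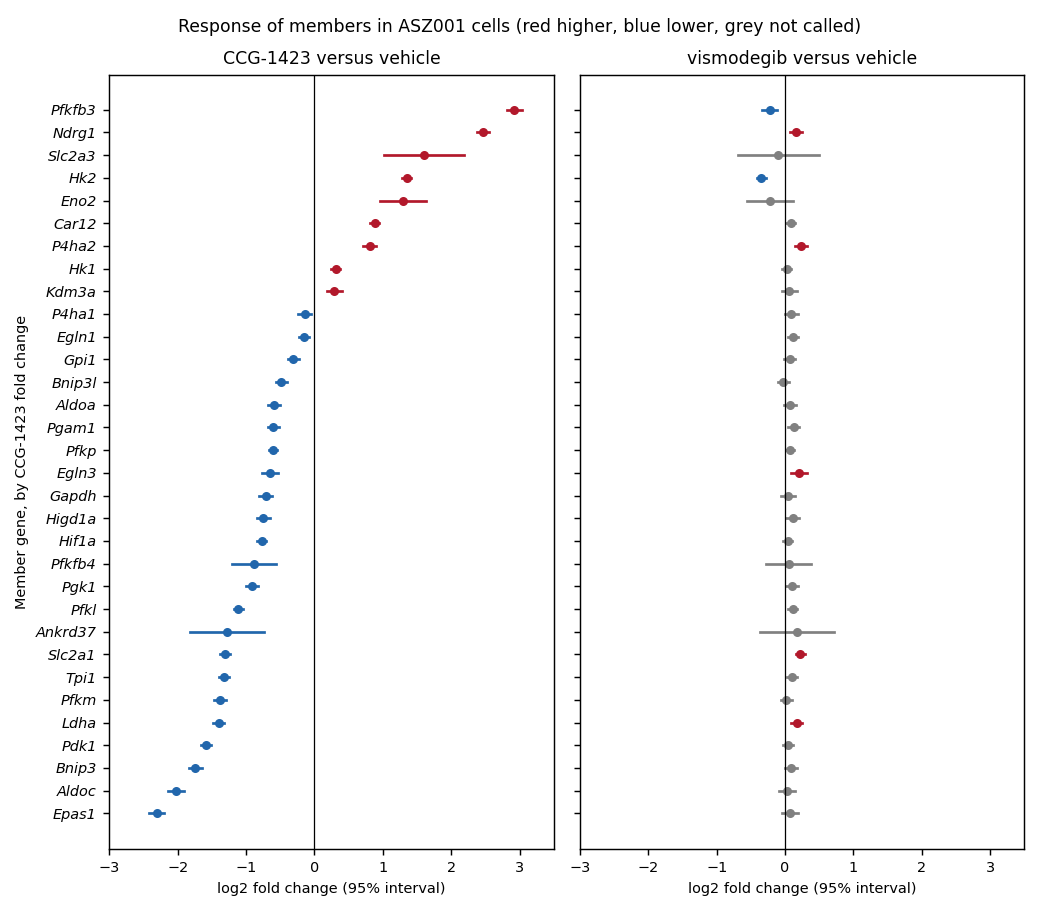
Log2 fold change of the 32 tested members in ASZ001 cells with 95% intervals, for CCG-1423 against vehicle (left) and vismodegib against vehicle (right), ordered by the CCG-1423 value. The CCG-1423 values run from -2.31 for Epas1 to 2.92 for Pfkfb3, while those of vismodegib lie between -0.35 and 0.23.

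The steps of the pathway were split. Slc2a1 had 10309.7, 10490.3 and 10419.9 normalized counts with CCG-1423 and 25732, 25470.0 and 25939 with vehicle, a log2 fold change of -1.30 ± 0.03 (SE, limma adjusted p = 6.79e-15). Slc2a3, low in these cells, had 54.8, 48.5 and 48.2 with CCG-1423 and 19.6, 18.1 and 11.3 with vehicle, so that it moved against Slc2a1 (1.60 ± 0.28, adjusted p = 5.74e-05). Of 14 enzymes 11 fell and 3 rose, with a median of -0.66. Hk2, at the entry of the pathway, rose, with 9524, 9859 and 9700.4 with CCG-1423 and 3779, 3763 and 3882 with vehicle (1.35 ± 0.03, adjusted p = 2.33e-15). The other hexokinase, Hk1, rose less, with 7243 ± 175 with CCG-1423 and 5849 ± 99.5 with vehicle (SD, n = 3 each, 0.31 ± 0.03). Of the member enzymes after them all tested but Eno2 fell, among them Gpi1 (-0.31 ± 0.04), all 3 phosphofructokinases (Pfkl -1.11 ± 0.03, Pfkm -1.38 ± 0.04, Pfkp -0.61 ± 0.03) and both aldolases (Aldoa -0.59 ± 0.04, Aldoc -2.02 ± 0.05). Tpi1 had 10757, 11366 and 11682 with CCG-1423 and 27768, 28340.3 and 28722 with vehicle (-1.33 ± 0.03, adjusted p = 8.32e-15). Aldoc had 253, 259.6 and 248 with CCG-1423 and 979, 1039.8 and 1084 with vehicle (adjusted p = 1.17e-14). Ldha had 16012, 17382 and 16539 with CCG-1423 and 43937, 43296 and 44364 with vehicle (-1.40 ± 0.04, adjusted p = 1.65e-14). In all 3 the highest CCG-1423 library was far under the lowest vehicle library. Gapdh (-0.71 ± 0.05), Pgk1 (-0.92 ± 0.04) and Pgam1 (-0.60 ± 0.04) fell less. Eno2, low in these cells, rose to 118, 144 and 119 with CCG-1423, against 49.0, 61.7 and 44.1 with vehicle (1.29 ± 0.16, adjusted p = 1.3e-06). The row Eno1b, not a member, was far higher than Eno2 and overlapped between the groups. It had 9540, 10167.5 and 10027 with CCG-1423 and 10420, 9987 and 10547 with vehicle. As in the tumours, it is not read as the level of the enolase gene.

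The regulators of the flux moved apart. Pfkfb3 rose more than any other member, with 2620.4, 2817 and 2725 normalized counts with CCG-1423 and 358, 363 and 353 with vehicle, 7.60 times the vehicle mean (log2 fold change 2.92 ± 0.05, adjusted p = 1.63e-16). Pfkfb4 fell (55.7 ± 11.1 with CCG-1423 and 102 ± 7.44 with vehicle, SD, n = 3 each, -0.89 ± 0.15). Pdk1 had 1139, 1130.0 and 1162 with CCG-1423 and 3534, 3443 and 3329.7 with vehicle (-1.59 ± 0.04, adjusted p = 1.87e-15). For each regulator, as for all 32 tested members, the libraries of both groups were apart. Over all genes they were apart for 5493 higher and 5466 lower of 12775 tested.

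All 4 genes of the oxygen switch fell. Epas1 fell most among the members, to 736, 819 and 741 normalized counts with CCG-1423, against 3493, 3925 and 3980.5 with vehicle (-2.31 ± 0.05, adjusted p = 2.46e-15). Hif1a had 26472, 26506 and 27926 with CCG-1423 and 46339, 45930.5 and 46008 with vehicle (-0.77 ± 0.03, adjusted p = 1.66e-12). Egln3 had 401, 395 and 432 with CCG-1423 and 641, 657 and 633 with vehicle (-0.65 ± 0.06, adjusted p = 1.44e-08). Egln1 fell least, with 4100.0, 3850.4 and 4038 with CCG-1423 and 4531, 4319.9 and 4517 with vehicle (-0.16 ± 0.03, adjusted p = 0.000539).

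Of 9 other hypoxia-induced genes tested, 4 rose and 5 fell. Ndrg1 had 16413, 17679.6 and 17878 normalized counts with CCG-1423 and 3266, 3089.6 and 3029 with vehicle, 5.54 times the vehicle mean (2.47 ± 0.04, adjusted p = 5.83e-17). Bnip3 ran opposite, with 537, 599 and 568 with CCG-1423 and 1883, 1905 and 1916 with vehicle (-1.74 ± 0.04, adjusted p = 5.65e-15). Car12 had 5769, 5862 and 5906 with CCG-1423 and 3185, 3131 and 3223 with vehicle (0.88 ± 0.03, adjusted p = 2.41e-13). P4ha2 had 4560.4, 4956 and 4907 with CCG-1423 and 2765, 2683 and 2796 with vehicle (0.81 ± 0.04, adjusted p = 4.74e-11), while its relative P4ha1 fell slightly (-0.14 ± 0.04). Both windows shown above for Bnip3 and P4ha2 hold the core letters, and their genes moved in opposite directions here. Kdm3a rose (0.29 ± 0.05), and Higd1a (-0.75 ± 0.04), Bnip3l (-0.49 ± 0.04) and Ankrd37 (-1.27 ± 0.25) fell.

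**Figure D4:**
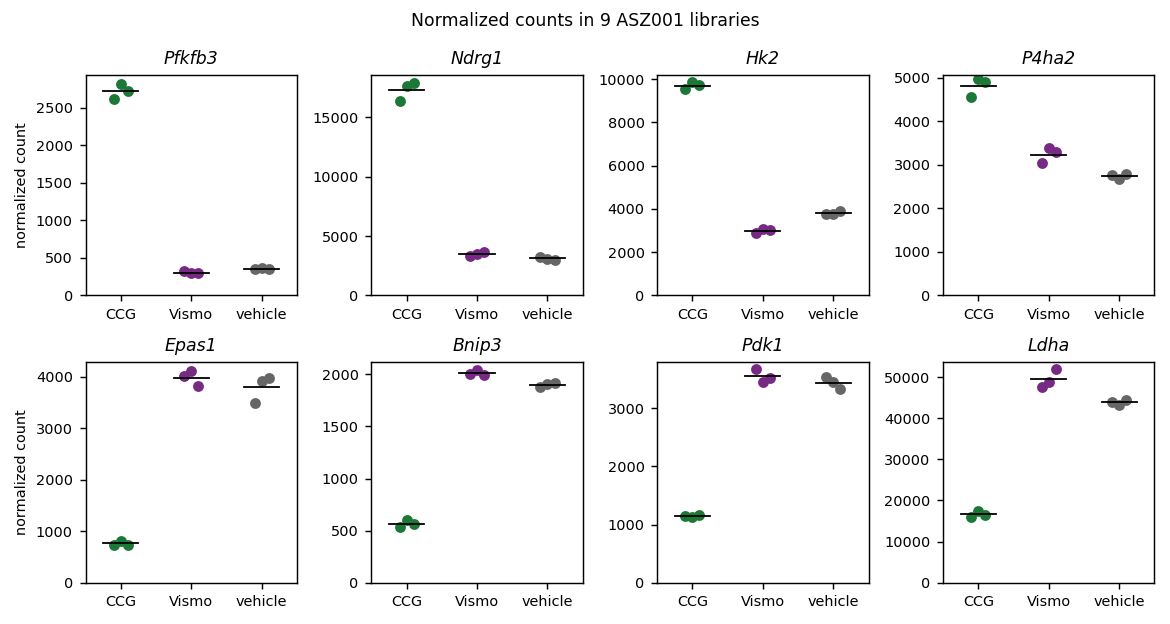
Normalized counts of 8 members in each of the 9 ASZ001 libraries, with CCG-1423 and vismodegib left of vehicle and lines at the group means. Pfkfb3, Ndrg1, Hk2 and P4ha2 are high with CCG-1423, Epas1, Bnip3, Pdk1 and Ldha are low, and the vismodegib libraries lie near vehicle in all 8.

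The cells changed in other ways at the same time. Basal keratinocyte markers summed to 292895 to 305982 normalized counts with CCG-1423 and 1355940 to 1386190 with vehicle, with 7 of 7 lower. Proliferation markers summed to 27560 to 29840 with CCG-1423 and 16509 to 17509 with vehicle, with 5 of 5 higher. The ribosomal RNA row Rn45s took 6.62 to 10.4% of reads with CCG-1423, 1.39 to 1.58% with vismodegib and 5.81 to 6.70% with vehicle. Malat1 took 0.134 to 0.174% with CCG-1423, 0.0321 to 0.041% with vismodegib and 0.0695 to 0.080% with vehicle. It rose with CCG-1423 (log2 fold change 0.97 ± 0.09, limma adjusted p = 7.6e-08) and fell with vismodegib (-1.17 ± 0.09, adjusted p = 1.03e-06), both against vehicle. The part of these shifts in the members' differences was not tested. A fit without the rows Rn45s and Lars2, added after the data were seen, again gave 9 members higher and 23 lower. It kept the deposited scaling, so the members' fold changes could not differ, and it does not test the part of these shifts.

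Around the members, CCG-1423 lowered the citric acid cycle broadly, with 15 genes lower and 2 higher of 17 and a median of -0.76. Idh2 (-1.81 ± 0.04), Idh3a (-1.09 ± 0.03) and Mdh2 (-1.10 ± 0.03), all dehydrogenases or dehydrogenase subunits, were among those of smallest p. Entry of pyruvate into mitochondria had 8 lower and 2 higher of 12, with the phosphatase Pdp1 higher (1.62 ± 0.07) and the pyruvate carrier Mpc2 (-0.68 ± 0.04), the kinase Pdk2 (-1.03 ± 0.06) and Pdha1 (-0.40 ± 0.04) lower. The pentose phosphate pathway had 4 lower and 1 higher of 7, with Pgd (-1.28 ± 0.03), Tkt (-0.78 ± 0.03) and G6pdx (-0.72 ± 0.04) lower and Rpia higher (1.18 ± 0.08). Further hypoxia-induced genes were split, with 12 higher and 9 lower of 24. Vegfa (2.32 ± 0.04) and the phosphatase Dusp1 (2.52 ± 0.08) rose, and Fam162a (-1.62 ± 0.04) and Gys1 (-1.62 ± 0.06) fell. The rest of glycolysis had 5 higher and 7 lower of 14, with Adpgk, a glucokinase that uses ADP (1.02 ± 0.04), and Slc16a1 (0.66 ± 0.03) higher and Slc16a7, a carrier of lactate and pyruvate (-2.45 ± 0.08), and Bsg (-0.83 ± 0.03) lower. The oxygen-sensing machinery had 4 higher and 8 lower of 12, with Siah2, a ubiquitin ligase that acts on the prolyl hydroxylases (2.27 ± 0.05), Vhl (0.82 ± 0.05) and Siah1a (0.84 ± 0.06) higher and Cited2 lower (-0.60 ± 0.04). Glycogen metabolism had 3 higher and 6 lower of 10, with Gys1, Pgm2 (-0.73 ± 0.03), Ugp2 (-0.45 ± 0.03) and Pygb (-0.36 ± 0.03) lower. Gluconeogenesis had 3 higher and 2 lower of 5, with Pcx (2.82 ± 0.07) and Pck2 (1.38 ± 0.06) higher and G6pc3 (-0.60 ± 0.06) and Fbp1 (-1.20 ± 0.37) lower. Other carbonic anhydrases and acid exporters had 3 higher and 2 lower of 7, with Car6 (5.67 ± 0.19) and Car5b (0.36 ± 0.07) higher and Car2 (-2.99 ± 0.20) and Car13 (-0.66 ± 0.03) lower. Of 7 regulators 2 rose, Myc among them (1.09 ± 0.03), and 5 fell, with Txnip (-2.68 ± 0.12), Arrdc4 (-1.42 ± 0.06) and Ppargc1a (-0.92 ± 0.04) of smallest p.

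Vismodegib, compared with vehicle to ask what Smo inhibition does in these cells, moved few members and by little. Of 32 tested, 5 rose and 2 fell, where 1.58% of all genes passed as higher and 3.92% as lower, and the median was 0.07 against 0.01 over all genes. Hk2, which CCG-1423 raised, fell with vismodegib, to 2898, 3059 and 3024 normalized counts, against 3779, 3763 and 3882 with vehicle (log2 fold change -0.35 ± 0.03, limma adjusted p = 3.54e-06). Pfkfb3 fell as well, with 319.8, 297 and 300.4 with vismodegib and 358, 363 and 353 with vehicle (-0.23 ± 0.05, adjusted p = 0.0171). Among the genes that rose, P4ha2 had 3028, 3375 and 3288 with vismodegib and 2765, 2683 and 2796 with vehicle (0.23 ± 0.04, adjusted p = 0.00387). Slc2a1 had 28746, 29830.4 and 31462 with vismodegib and 25732, 25470.0 and 25939 with vehicle (0.22 ± 0.03, adjusted p = 0.000674). Ldha (0.17 ± 0.04, adjusted p = 0.0142), Ndrg1 (0.16 ± 0.04, adjusted p = 0.0278) and Egln3 (0.20 ± 0.06, adjusted p = 0.0468) rose too. Both alpha subunits were near vehicle, with intervals of the log2 fold change of -0.03 to 0.10 for Hif1a and -0.04 to 0.18 for Epas1.

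The small vismodegib differences hung on the scaling and on single libraries. With libraries scaled to total reads, 21 members were higher and 1 lower and 3229 genes passed in all (25.3% of those tested), 90.5% of them higher against 28.7% as deposited, while the median of all genes moved by 0.08 and Pfkfb3 no longer passed. With any 1 vehicle or vismodegib library left out, Egln3 no longer passed, and the number of members higher ran from 2 to 11 when any 1 of the 9 libraries was left out. DESeq2 called 7 members higher and 1 lower, where it called 5.42% of all genes. Hk2, Slc2a1 and P4ha2 passed in every setting tried. In the neighbouring lists few genes passed with vismodegib, namely Pfkfb2 (0.17 ± 0.03) and Ak4 (0.17 ± 0.05) higher and Idh2 (-0.17 ± 0.04), Ugp2 (-0.15 ± 0.03), Mxi1 (-0.24 ± 0.03) and Car5b (-0.33 ± 0.07) lower.

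Set directly against vismodegib, CCG-1423 gave 9 members higher and 23 lower of 32, where 42.4% of all genes passed in each direction, with a median of -0.74. Pfkfb3 differed most upwards (3.15 ± 0.05, adjusted p = 7.1e-17), followed by Ndrg1 (2.31 ± 0.04), Slc2a3 (1.70 ± 0.28) and Hk2 (1.70 ± 0.03), and Epas1 most downwards (-2.38 ± 0.05). The 2 compounds do not share a target, and the sources used here do not say whether their doses were matched.

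The tumour and cell comparisons share no library, so the members' values can be set side by side. Of the 26 members that rose in resistant tumours without sensitive tumour 4 and were tested in the cells, 20 fell with CCG-1423 (76.9%) and 6 rose (23.1%). Over all genes that rose in the same way and were tested in the cells, 2535 in number, 34.9% fell with CCG-1423 and 52.8% rose. The 6 were Slc2a3, Hk2, Eno2, Pfkfb3, Ndrg1 and P4ha2. The 20 include the oxygen switch in full, with Hif1a at 1.76 in the tumours and -0.77 with CCG-1423, Epas1 at 1.20 and -2.31, Egln1 at 1.62 and -0.16, and Egln3 at 3.29 and -0.65 (log2 fold changes). They also include most of the enzymes, Bnip3 (3.35 in the tumours and -1.74 with CCG-1423) and Pdk1 (1.15 and -1.59). Pfkm was lower in both, and Car12 was lower in resistant tumours and higher with CCG-1423. Hk1 and Kdm3a, higher with CCG-1423, and Pfkp and Pfkfb4, lower with it, did not pass in the tumours, and Slc16a3, Car9 and Adm, which rose in the tumours, were not tested in the cells. Both tables were normalized separately, and the tumours hold cells of many kinds, so levels were not compared between them.

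**Figure D5:**
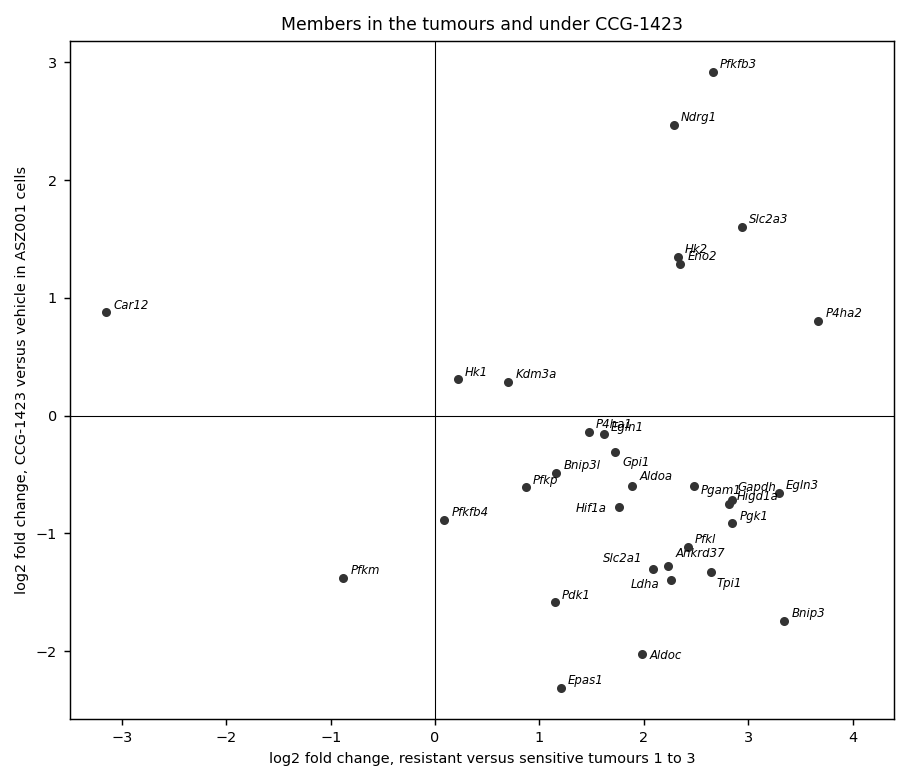
Log2 fold change of the 32 members tested in both data sets, in resistant against sensitive tumours 1 to 3 (horizontal axis) and with CCG-1423 against vehicle in ASZ001 cells (vertical axis), each point 1 gene. Most points lie at lower right, with Car12 at upper left and Pfkm at lower left. At upper right are the 6 genes that rose in both, with Hk1 and Kdm3a, which did not pass in the tumours.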

How the data were processed

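RNA was sequenced from 8 tumours and 9 cell libraries. Both deposited files hold signal values, namely reads of each gene that the authors scaled by a size factor for the library, table by table. Whole reads were recovered from the steps of the values, with 100% of values whole within 0.01 read. Per the submitters' processing notes, the tools were TopHat and DESeq (no versions) and mm9 was the genome build. The sources used here do not give the gene counter, annotation or strandedness. The 3 reads that a count of 0 allows equal 2.09 to 4.97 normalized counts in tumour and 2.45 to 3.40 in cell libraries, for counting error only. Within a group, pairs of libraries differed beyond sampling noise (chi-square per degree of freedom 13.5 to 184 in tumours, 1.84 to 40.9 in cells).

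Tests were run with limma 3.58.1 (R 4.3.3; moderated by empirical Bayes, with a trend in the variance) on log2 of the normalized count plus 1, for all genes at 10 or more in at least as many libraries as the smallest group. Fold changes are on that scale, which understates the change of low genes. They come with the SE of the fit, and p-values are 2-sided and adjusted by Benjamini-Hochberg over all tested genes (threshold 0.05). The 9 cell libraries shared 1 fit. Alternatives were edgeR 4.0.16 and DESeq2 1.42.0 on the recovered reads, pseudocounts of 0.5 and 5, no filter, TMM and total-read scaling, a replicate block, Y-linked reads as a covariate, and leaving out each library. Covariates for reads and Malat1, and the fit without Rn45s and Lars2, were added after seeing the data. The steps were tested on simulated data. The members, lists and tests were chosen with earlier results of these data known. Named with values in every library were up to 4 members per role and comparison by smallest p, plus members that moved against their role group. From each other list up to 4 passing genes of smallest p were named, save a few that are not reported here, and those of lists with none passing in the 8 tumours are given in the closing section. Of 14 marker lists, 10 are given in the results and the others in the closing section. Promoters come from RefSeq (GRCm38.p6), which had windows for 32 members, and not for Slc2a3, Epas1, Bnip3l and Ndrg1.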

Additional observations from a re-analysis of the deposited data

Results flagged for a closer look

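Sensitive tumour 4 lay far from the other sensitive tumours in 29 of the 36 members, and 0 members had such a library among the resistant tumours. For the resistant tumours no share over all genes is given, so that 0 is not read as a trait of the members. Over all genes tested sensitive tumour 4 lay as far from its group in 15.1%, and as far above it in 12.4%. Of the 35 members tested it lay as far above its group in 82.9%. The measure is the gap between that library and the nearest of the other 3, as a share of the group's whole range, set against Dixon's 95% critical value for a group of 4, and chance gives about 1 in 20 groups. In all, 72 groups were looked at, which are 36 members in both tumour groups, and the members are not independent of each other. The shares were, in order of role, Slc2a1 (0.922), Slc2a3 (0.95), Slc16a3 (0.984), Hk2 (0.93), Gpi1 (0.848), Pfkl (0.995), Aldoa (0.953), Aldoc (0.96), Tpi1 (0.988), Gapdh (0.988), Pgk1 (0.983), Pgam1 (0.97), Eno2 (0.978), Ldha (0.973), Pfkfb3 (0.972), Pdk1 (0.864), Hif1a (0.896), Egln1 (0.967), Egln3 (0.956), Bnip3 (0.984), Bnip3l (0.861), Ndrg1 (0.91), Car9 (0.916), Ankrd37 (0.959), Adm (0.981), P4ha1 (0.901), P4ha2 (0.994), Kdm3a (0.855) and Higd1a (0.897). In every one of these genes sensitive tumour 4 was the highest of its group. Epas1, Hk1, Pfkm, Pfkp, Pfkfb4, Car12 and Eno1 were not among them. Sensitive tumour 4 also had 0 Y-linked reads and lay with the resistant tumours over all genes, and whether its label is right was not tested.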

How the results depend on the processing

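In the comparison of resistant with sensitive tumours the count of genes that passed hung on the setting. It was 17 by limma with all 8 tumours and 0 with edgeR, with a pseudocount of 0.5, with total-read scaling, with the replicate block, and with Y-linked reads, log2 reads per library or log2 Malat1 as a covariate, while DESeq2 gave 1630. Leaving out 1 tumour gave 0 to 6184 genes, and sensitive tumour 4 was the only one whose removal gave more than 0. Members higher numbered 0 by limma with all 8 tumours, 2 with DESeq2 and 0 to 29 with 1 tumour left out. Members lower numbered 0, with 2 in DESeq2 and 0 to 2 with 1 tumour left out. At an unadjusted p under 0.05 limma gave 3789 genes with all 8 tumours. The members' median log2 fold change kept its sign under every setting except the covariates for Y-linked reads (-0.31) and reads per library (-0.68), and it was 0.19 with Malat1. The covariate for Y-linked reads leaves sensitive tumour 4 as the only sensitive library set against resistant ones, and under it these members changed sign, none past the threshold: Slc2a1 (-0.40), Slc2a3 (-0.17), Slc16a3 (-0.42), Hk1 (-0.32), Hk2 (-0.31), Gpi1 (-0.016), Pfkl (-0.51), Pfkp (-0.61), Aldoa (-0.24), Aldoc (-0.50), Tpi1 (-0.43), Gapdh (-0.25), Pgk1 (-0.80), Pgam1 (-0.17), Eno2 (-0.36), Ldha (-0.65), Pfkfb3 (-1.31), Pfkfb4 (-0.11), Pdk1 (-0.76), Egln1 (-0.32), Egln3 (-0.76), Bnip3 (-0.23), Bnip3l (-0.052), Ndrg1 (-0.25), Ankrd37 (-0.31), Adm (-0.24), P4ha1 (-0.28), P4ha2 (-0.48), Kdm3a (-0.32) and Higd1a (-0.062). Hk1 was also at -0.028 and Pfkfb4 at -0.069 with total-read scaling, which moved the median of all genes by -0.11, and leaving out 1 tumour gave -0.018 to 0.21 for Hk1 and -0.10 to 0.18 for Pfkfb4. With vismodegib, total-read scaling gave 3229 genes, 21 members higher and 1 lower. DESeq2 gave 1 member lower. Leaving out 1 library gave 325 to 1491 genes, 2 to 11 members higher and 1 to 2 lower. Bnip3l turned to 0.056 with total-read scaling, and leaving out 1 library turned the sign of Slc2a3, Pfkm, Aldoc, Pfkfb4 and Ankrd37, none of which passed (-0.34 to 0.12 for Slc2a3, -0.005 to 0.054 for Pfkm, -0.013 to 0.061 for Aldoc, -0.018 to 0.13 for Pfkfb4, -0.15 to 0.35 for Ankrd37). The cause of these shifts was not tested. For CCG-1423 against vehicle and against vismodegib all 54 counts tried in each stayed within 1.5 times the count reported, and all 544 single-member values in each kept their direction and call. The members' median moved in 3 of 18 settings in each, to between -0.66 and -0.60 against vehicle (-0.63 as reported) and between -0.79 and -0.70 against vismodegib (-0.74). Same-numbered samples correlated at -0.146 to 0.122 among tumours and at -0.0427 to 0.0368 among cell libraries, which gave no sign of pairing. Pairing is not excluded, since these are correlations of deviations from the group mean, and sensitive tumour 4 shifts the mean of its group. With the block, 606 genes, 4 members higher and 2 lower passed with vismodegib, Egln3 having lost its call (adjusted p = 0.0821), and no other member changed its call. In the cells Slc16a3, Car9, Adm and Eno1 had too few reads to be tested.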

Other observations

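With all 8 tumours, where 0 genes of the neighbouring lists passed limma, the genes of smallest p in each list had these log2 fold changes (SE). They were Slc16a1 (2.89 ± 0.79, adjusted p = 0.139) and Pfkfb2 (-1.16 ± 0.36, adjusted p = 0.144) for the rest of glycolysis, Pdk2 (-1.07 ± 0.47, adjusted p = 0.196) and Pdk3 (0.55 ± 0.30, adjusted p = 0.266) for pyruvate entry, Idh2 (-1.0 ± 0.28, adjusted p = 0.139) and Cs (1.05 ± 0.38, adjusted p = 0.159) for the citric acid cycle, Rpia (1.08 ± 0.27, adjusted p = 0.136) and Pgd (-0.58 ± 0.17, adjusted p = 0.14) for the pentose phosphate pathway, Gbe1 (0.92 ± 0.31, adjusted p = 0.15) and Gyg (0.69 ± 0.24, adjusted p = 0.151) for glycogen. They were also Pck2 (0.67 ± 0.25, adjusted p = 0.163) and Pcx (-0.30 ± 0.30, adjusted p = 0.519) for gluconeogenesis, Siah2 (0.96 ± 0.27, adjusted p = 0.139) and Arnt2 (2.33 ± 0.86, adjusted p = 0.162) for oxygen sensing, Plin2 (-1.05 ± 0.23, adjusted p = 0.127) and Angptl4 (0.85 ± 0.22, adjusted p = 0.139) for further hypoxia-induced genes, Car2 (2.16 ± 0.62, adjusted p = 0.139) and Car13 (1.55 ± 0.50, adjusted p = 0.147) for acid export and Myc (0.99 ± 0.26, adjusted p = 0.139) and Ppargc1a (1.89 ± 0.51, adjusted p = 0.139) for the regulators. With vismodegib against vehicle the lists with no passing gene were led by Mpc1 (-0.14 ± 0.05, adjusted p = 0.101) and Mpc2 (0.09 ± 0.04, adjusted p = 0.269) for pyruvate entry, Pgls (0.10 ± 0.03, adjusted p = 0.101) and Tkt (0.07 ± 0.03, adjusted p = 0.281) for the pentose phosphate pathway, Fbp2 (-0.47 ± 0.14, adjusted p = 0.0605) and Pck2 (0.15 ± 0.06, adjusted p = 0.19) for gluconeogenesis, Siah2 (0.16 ± 0.05, adjusted p = 0.11) and Tceb1 (-0.10 ± 0.04, adjusted p = 0.273) for oxygen sensing and Ppargc1a (-0.14 ± 0.04, adjusted p = 0.0574) and Mlx (0.09 ± 0.04, adjusted p = 0.168) for the regulators.

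The marker lists not given above, in normalized counts, were as follows. Macrophage markers summed to 2819 to 16656 in resistant tumours, 5629 to 8490.1 in sensitive tumours 1 to 3, with 4757 in sensitive tumour 4. T and NK cell markers summed to 57.9 to 370.5 in resistant tumours, 142 to 272 in sensitive tumours 1 to 3, with 116 in sensitive tumour 4. B and plasma cell markers summed to 4080.1 to 11786 in resistant tumours, 4556 to 7009 in sensitive tumours 1 to 3, with 8644 in sensitive tumour 4. In ASZ001 cells with vehicle, normalized separately, the same list summed to 37413 to 38113.5. Sdc1 averaged 37771 there, so the sum is not specific to B and plasma cells. The erythroid list, in which the 4 globin genes were at 0 in resistant tumours and in sensitive tumours 1 to 3, so that Alas2, a gene of haem synthesis, made up its sum there, came to 330.0 to 542 in resistant tumours, 368 to 473 in sensitive tumours 1 to 3, with 405 in sensitive tumour 4. With or without sensitive tumour 4, 0 genes of these 4 lists passed limma.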
